A study of Mus musculus with 6 samples.

Results

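Pyruvate made by glycolysis enters mitochondria through a carrier and is turned into acetyl-CoA by the pyruvate dehydrogenase complex. The 10 genes described here encode that route: the carrier subunits Mpc1 and Mpc2, the complex subunits Pdha1, Pdhb, Dlat, Dld and Pdhx, and the kinases Pdk1, Pdk2 and Pdk3. They were taken by gene symbol from a table of 22355 genes, and all 10 were found and passed the filter on low values, a mean of at least 1 TPM. Transcripts were measured by RNA sequencing in MEFs (mouse embryonic fibroblasts), cells of embryonic connective tissue kept in culture. In 3 libraries (siHk2) the cells had been transfected with a small interfering RNA against Hk2, the gene of hexokinase 2, which phosphorylates glucose at the start of glycolysis. In the other 3 (siControl) the cells had received a negative control siRNA. The labels give neither the mouse strain, nor the siRNA sequences, nor the time after transfection. The libraries carry the numbers 1, 2 and 3 in siHk2 and 4, 5 and 6 in siControl.

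The carrier is a pair of small proteins of the inner mitochondrial membrane, and it needs both of them to work. Inside, Pdha1 and Pdhb form the enzyme that decarboxylates pyruvate with thiamine pyrophosphate, Dlat passes the acetyl group to coenzyme A on a lipoyl arm, and Dld re-oxidises that arm. Pdhx anchors Dld to the core of the complex. The kinases switch the complex off by phosphorylating Pdha1, and phosphatases switch it back on, so that transcript levels are no measure of its activity. Dld also serves the 2-oxoglutarate, branched-chain 2-oxoacid and glycine cleavage systems.

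The values are TPM, which correct for transcript length and are scaled to the same total in each library. The unit keeps no depth, so the depth of the libraries is unknown, and a value is a share of the transcripts, in which fewer cells of a type and less RNA per cell cannot be told apart. Hk2 read 22.4, 21.4 and 21.8 TPM in siHk2 and 57.1, 62.5 and 58.9 TPM in siControl. Of 13341 genes tested with limma and Benjamini-Hochberg adjustment, 1810 (13.6%) passed an adjusted p of 0.05. That count was 504 without siHk2 library 3, 714 without siHk2 library 2, 869 without siHk2 library 1 and 664 without siControl library 4. Of 11 fibroblast markers, 8 reached a mean of 1 TPM, with summed levels of 3613 to 3879 TPM in siHk2 and 3850 to 3927 TPM in siControl, while Thy1, Dcn and Lum read at most 0.54 TPM in any library. Of these 8, only Vim, a filament protein gene, passed, and it fell (log2 fold change -0.26, adjusted p = 0.0110 in limma). The other 7 had log2 fold changes of -0.07 (S100a4) to 0.63 (Col1a1), and 5 of them, the matrix genes Col1a1, Col1a2, Col3a1 and Fn1 and the receptor gene Pdgfrb, lay above 0. Of the marker lists of other cells, those of endothelium, hepatocytes and red cells had no gene that reached a mean of 1 TPM. The 7 macrophage markers summed to 54.1 to 60.5 TPM in siHk2 and 54.5 to 77.7 TPM in siControl. Most of that came from Cd68 and Cd14, while Ptprc, Adgre1, Csf1r and C1qa read at most 0.8 TPM in any library. The muscle markers summed to 85.5 to 106 TPM in siHk2 and 80.1 to 110.0 TPM in siControl. Nearly all of that was Des, while Actc1 and Ckm read at most 0.21 TPM in any library. The 5 adipocyte markers summed to 1207 to 1265 TPM in siHk2 and 751 to 783 TPM in siControl, with Lpl and Cidec higher and Adipoq at or near 0 in all libraries. Fabp4 averaged 331 ± 36.8 TPM in siHk2 and 259 ± 73.4 TPM in siControl (SD, n = 3 each), with overlap, and did not pass (limma adjusted p = 0.219). Plin1 read at most 0.57 TPM in any library. The 5 neural and glial markers found in the table summed to 137 to 150 TPM in siHk2 and 90.6 to 95.6 TPM in siControl, nearly all of it S100b, and the 6 epithelial markers to 6.25 to 8.90 TPM in siHk2 and 2.34 to 3.57 TPM in siControl. In siHk2 most of the epithelial sum was Krt7, while Epcam and Cdh1 read at most 0.09 TPM in any library. The part of these markers in the results that follow was not tested. No label says whether libraries of 1 group stem from different cultures. The spread on which the p-values rest may therefore be technical.

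Of the 10 genes, 1 passed the test: Dld fell in siHk2, and none rose. Over all genes the share that passed was 13.6%, with 6.15% higher and 7.42% lower in siHk2, so a count of 1 in 10 lies near the background. The median log2 fold change of the 10 was 0.09, against 0.01 for all tested genes. Of the 10 values, 7 lay above 0 and 3 below. Before adjustment 5 of the 10 had a p under 0.05, against 30.7% of all tested genes. The groups did not overlap for 6 of the 10, with siHk2 higher for 4 (Mpc1, Mpc2, Dlat and Pdhx) and lower for 2 (Dld and Pdk3). Over all tested genes they did not overlap for 35.7%, with 17.6% higher and 18.1% lower.

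**Figure D1:**
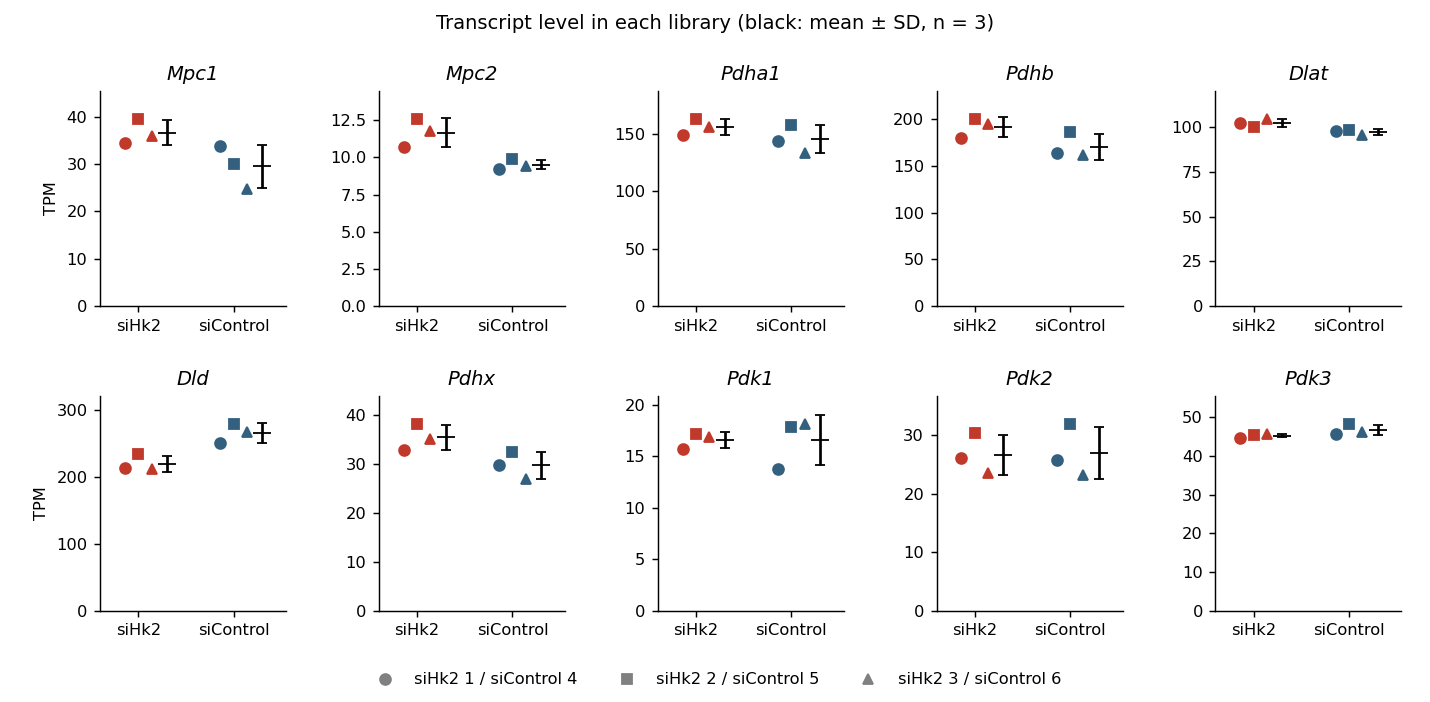
Level of each gene in TPM (vertical axis, from 0) in the 3 siHk2 and 3 siControl libraries, with the mean and SD of each group in black; the shapes mark library numbers and not pairs. Dld is lower in every siHk2 library than in any siControl library, and each kinase gene has similar means in siHk2 and siControl.

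Short sequences at the Dld gene and at others of the group are shown first, since Dld is the gene that passed. The windows come from RefSeq (build GRCm38.p6, 250 bases before to 50 after each annotated start), and a window was found for all 10 genes, 13 windows in all. Capitals mark the match to a motif searched on both strands, and positions count from the start of the transcript. The core bound by nuclear respiratory factor 1, a regulator of mitochondrial genes, reads GCGCA, then any base, then GCGC. It was present in 1 of the 13 windows, at Dld, and in 4.603% of all 32851 windows. TGACGT, found in cyclic AMP response elements, was present in 2 of the 13 windows, at Dld and Pdhb, and in 7.51% of all windows. CACGTG, the E-box bound by Myc and related factors, was present in 1 of the 13 windows, at Pdk2, and in 7.15% of all windows.
Dld, nuclear respiratory factor 1 core at position 40, chr12:31351422-31351442, minus strand: cgtatatgttGCGCAGGCGCa
Dld, TGACGT at position 27, chr12:31351428-31351457, minus strand: gctcctcggcgaTGACGTatatgttgcgca
Pdhb, TGACGT on the opposite strand at position -247, chr14:8173222-8173242, minus strand: ctcACGTCAcctctgctggac
Pdk2, CACGTG at position -126, chr11:95041480-95041509, minus strand: ctcgaggagagcCACGTGtcgaagcgcaag
The ACGTG core bound by hypoxia-inducible factors lies within every CACGTG. It was found in 3 of the 13 windows, at Pdk2, Pdhb and Pdk3, and in 19.6% of all windows. In Pdhb it overlaps the TGACGT match. CCAAT was present in 7 of the 13 windows, at 7 of the 10 genes, and in 37.4% of all windows. GGGCGG was present in 8 of the 13 windows, at 7 of the 10 genes, and in 35.7% of all windows. AGGTCA, bound by nuclear receptors, was present in 1 of the 13 windows, at Mpc1, and in 16.3% of all windows. Such matches describe letters only.

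The heptamer GGAGACT had been picked by an earlier scan of these same fold changes, in which 3' untranslated regions (UTRs) with it went with lower values in siHk2. It is therefore shown here as a description and is no independent support for the fall of Dld. In GENCODE M21 (GRCm38) the longest coding transcripts of 2 of the 10 genes carry it in the 3' UTR, Dld and Pdha1, against 11.9% of 11463 tested genes with such a region. The matches are shown in capitals with the neighbouring bases.
Dld, base 556 of 900 in the 3' UTR: agtattaaatGGAGACTcatgattata
Pdha1, base 820 of 1574 in the 3' UTR: ttctgtgctgGGAGACTgcatgccaga
Dld fell, whereas Pdha1 averaged 156 ± 6.90 TPM in siHk2 and 146 ± 12.3 TPM in siControl (SD, n = 3 each) and did not pass. Of the 1361 tested genes with the heptamer, 13.8% were called lower and 3.75% higher, against 7.51% lower and 6.87% higher of the 10102 without it. Since the heptamer was picked for such a difference, this contrast is no independent result either. The 2 sets were not matched for UTR length.

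Dld encodes dihydrolipoamide dehydrogenase and was the most abundant of the 10 transcripts in both groups, at rank 641 of all 13341 tested genes by mean level. It read 213, 234 and 212 TPM in siHk2 and 250, 279 and 267 TPM in siControl. Every siHk2 library lay below every siControl library. The mean was 220 ± 12.2 TPM in siHk2 and 265 ± 14.4 TPM in siControl (SD, n = 3 each), so that the level fell by 17.2%. On the log2(TPM + 1) scale the difference was -0.27 (95% confidence interval -0.41 to -0.14, SE 0.06, limma adjusted p = 0.0251). The call was lost without siControl library 5 (adjusted p = 0.0509), without siHk2 library 1 (adjusted p = 0.0815) and without siHk2 library 3 (adjusted p = 0.104). It was also lost without the filter on low values (limma adjusted p = 0.0519) and with no mean-variance trend (limma adjusted p = 0.0657). Over all 14 alternative settings the adjusted p ran from 0.0127 to 0.104, with the same sign in each. Dld (ENSMUSG00000020664) is listed at 31381276 to 31401452 of chromosome 12, minus strand (GRCm39, the build named in the submitters' processing notes). Of its longest coding transcript, 0 of 2495 windows of 50 bases recur in a transcript of another gene.

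The carrier subunits were both higher in every siHk2 library and did not pass the test. Mpc1 read 34.42, 39.49 and 36.02 TPM in siHk2 and 33.84, 30.01 and 24.83 TPM in siControl. The lowest siHk2 library and the highest siControl library lay close together, and the siControl libraries were the more spread. Its log2 fold change was 0.31 (95% confidence interval 0.05 to 0.57, SE 0.11, limma adjusted p = 0.109), and it was 0.19 without siControl library 6 and 0.19 with library weights. Mpc2 read 10.7, 12.6 and 11.8 TPM in siHk2 and 9.24, 9.87 and 9.43 TPM in siControl, again without overlap. Its log2 fold change was 0.27 (95% confidence interval 0.07 to 0.47, SE 0.09, limma adjusted p = 0.0806). The intervals of both leave out 0 before adjustment, while the adjusted p-values miss the threshold. Per length, in TPM, Mpc1 exceeded Mpc2 in every library, by a ratio of 3.14 ± 0.0841 in siHk2 and 3.11 ± 0.518 in siControl (SD, n = 3 each), with overlap. For Mpc1, 23.2% of the 50-base windows of its longest coding transcript also occur in Mpc1-ps or Gm8219, and a long non-coding gene, 4930506C21Rik, overlaps it on the opposite strand by 4330 bases, so its level is uncertain. Mpc2 shared 0 of 976 windows.

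Of the subunits that decarboxylate pyruvate, Pdhb was the more abundant in every library. Pdhb read 180, 200.2 and 195 TPM in siHk2 and 164, 187 and 162 TPM in siControl. The groups overlapped through siControl library 5, which lay above siHk2 library 1. Its log2 fold change was 0.17 (95% confidence interval 0.01 to 0.33, SE 0.07, limma adjusted p = 0.145), and it passed without siControl library 5 (log2 fold change 0.24, adjusted p = 0.0424, with a range of 0.0190 to 0.345 over the 14 settings). The catalytic alpha subunit gene Pdha1, the target of the kinases and of the phosphatases, read 149, 163 and 156 TPM in siHk2 and 144, 158 and 134 TPM in siControl, with overlap. Its log2 fold change was 0.10 (95% confidence interval -0.06 to 0.26, SE 0.07, limma adjusted p = 0.351), and it was 0.046 without siControl library 6 and 0.17 without siControl library 5. The ratio of Pdha1 to Pdhb was 0.828, 0.815 and 0.800 in siHk2 and 0.881, 0.848 and 0.830 in siControl. It was lower in every siHk2 library, by a narrow margin between siHk2 library 1 and siControl library 6. For Pdhb, 30.3% of the 50-base windows also occur in Gm6123, so its level and this ratio are uncertain. Pdha1 shared 0.465% of its windows and overlaps Map3k15, on the opposite strand, by 1143 bases.

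The core subunit genes Dlat and Pdhx were both higher in every siHk2 library and did not pass. Dlat, the acetyltransferase, read 102, 100.1 and 104 TPM in siHk2 and 97.7, 98.4 and 95.5 TPM in siControl. The groups were close and did not overlap, and the log2 fold change was 0.07 (95% confidence interval -0.02 to 0.17, SE 0.04, limma adjusted p = 0.277). Pdhx, the protein that holds Dld on the core, read 32.86, 38.08 and 35.12 TPM in siHk2 and 29.76, 32.45 and 26.95 TPM in siControl. Its lowest siHk2 library lay just above its highest siControl library, with a log2 fold change of 0.24 (95% confidence interval 0.05 to 0.44, SE 0.08, limma adjusted p = 0.0986). Dlat exceeded Pdhx in every library, by a ratio of 2.91 ± 0.251 in siHk2 and 3.29 ± 0.255 in siControl (SD, n = 3 each), with overlap. Dlat shared 0 and Pdhx 4 of their 50-base windows with other genes.

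**Figure D2:**
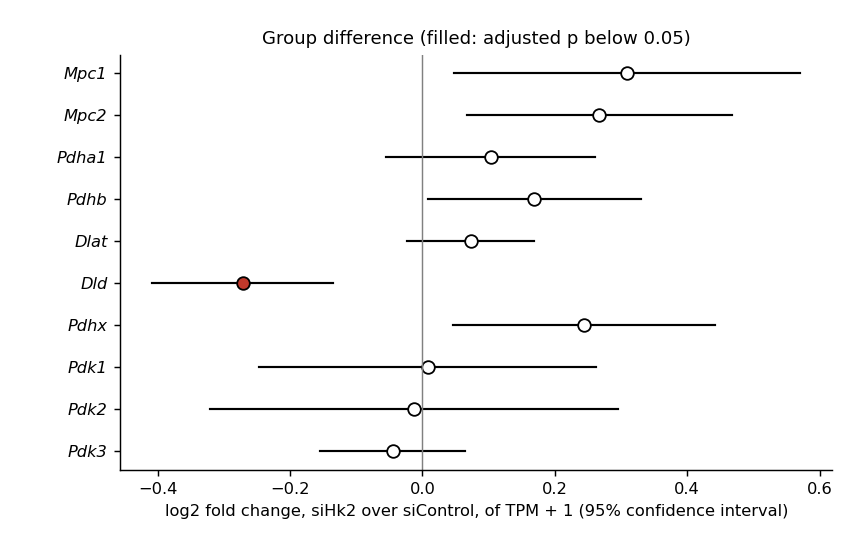
Difference between siHk2 and siControl for each gene on the log2(TPM + 1) scale (horizontal axis), with its 95% confidence interval from limma; the filled point passed an adjusted p of 0.05. Dld stands at -0.27 while the carrier subunits and Pdhx stand between 0.24 and 0.31, and the kinases lie near 0.

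Since Dld fell while the other subunit genes had values above 0, the ratios of Dld to them were set side by side; these ratios were chosen after the values were seen and carry no test. Dld over Pdhx was 6.49, 6.14 and 6.05 in siHk2 and 8.411, 8.596 and 9.913 in siControl. Its mean in siHk2 was 0.694 times that in siControl. Dld over Pdhb averaged 1.146 ± 0.0508 in siHk2 and 1.56 ± 0.0849 in siControl, and Dld over Dlat 2.15 ± 0.163 in siHk2 and 2.73 ± 0.148 in siControl (SD, n = 3 each). None of these ratios overlapped between the groups. For Pdhx and Dlat this adds nothing to the single genes, since Dld was lower and both partners were higher in every siHk2 library. The transcript of the shared subunit stayed above those of its partners in all 6 libraries.

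**Figure D3:**
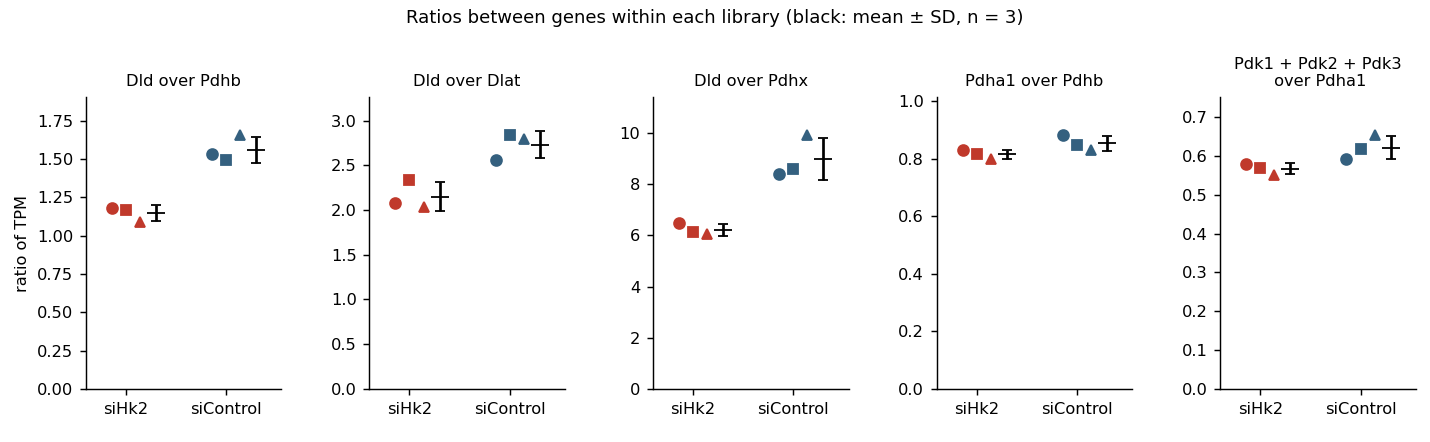
Ratios of TPM between genes within each library (vertical axes, from 0) for siHk2 and siControl, with the mean and SD of each group in black; circles, squares and triangles are siHk2 libraries 1, 2 and 3 and siControl libraries 4, 5 and 6. The 3 ratios with Dld are the farthest apart, at 0.694 to 0.787 of the siControl mean, and the other 2 ratios differ by narrower margins.

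The kinase genes did not pass, and their fold changes lay within 0.05 of 0 on the log2 scale as fitted. Under the alternative settings Pdk1 ran from -0.11 to 0.16, Pdk2 from -0.11 to 0.11 and Pdk3 from -0.06 to -0.02, with Pdk1 at 0.16 under library weights and at -0.11 without siControl library 4, Pdk2 at 0.11 without siControl library 5, and Pdk3 at -0.02 without siControl library 5. Pdk3 was the most abundant kinase transcript, at 44.8, 45.4 and 45.7 TPM in siHk2 and 45.8, 48.3 and 46.2 TPM in siControl. Every siHk2 library was lower by a small gap, and the log2 fold change was -0.04 (95% confidence interval -0.15 to 0.07, SE 0.05, limma adjusted p = 0.568). Pdk2, the widely expressed form, read 26.0, 30.3 and 23.5 TPM in siHk2 and 25.8, 31.9 and 23.2 TPM in siControl, with full overlap. Its log2 fold change was -0.01 (95% confidence interval -0.32 to 0.29, SE 0.13, limma adjusted p = 0.960). Pdk1, a known target of hypoxia-inducible factors, read 15.7, 17.1 and 16.9 TPM in siHk2 and 13.8, 17.8 and 18.1 TPM in siControl. Its siHk2 values lay within the siControl range, with a log2 fold change of 0.01 (95% confidence interval -0.25 to 0.26, SE 0.11, limma adjusted p = 0.969). For Pdk1 and Pdk2 these intervals reach about as far from 0 as the value of Dld, and for Pdk3 less far. None of the 3 shared a 50-base window with another gene.

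Pdk4, the kinase known for its rise in fasting, is no member of the group of 10 and read 13.8, 13.3 and 14.6 TPM in siHk2 and 12.1, 11.5 and 13.5 TPM in siControl (log2 fold change 0.16, adjusted p = 0.251 in limma). Of the summed TPM of the 4 kinase genes, Pdk3 held 44.3% ± 1.36 in siHk2 and 45.6% ± 1.44 in siControl, and Pdk2 25.9% ± 2.61 in siHk2 and 26.2% ± 3.07 in siControl (SD, n = 3 each). Pdk1 held 16.2% ± 0.576 in siHk2 and 16.1% ± 1.90 in siControl, and Pdk4 13.6% ± 0.965 in siHk2 and 12.1% ± 1.43 in siControl. All 4 shares overlapped between the groups. The sum of Pdk1, Pdk2 and Pdk3 over Pdha1 was 0.580, 0.569 and 0.551 in siHk2 and 0.592, 0.618 and 0.653 in siControl. It was lower in every siHk2 library, while the sum alone overlapped, at 88.5 ± 3.78 TPM in siHk2 and 90.3 ± 6.75 TPM in siControl.

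Ordered by level, Dld came first, then Pdhb, Pdha1, Dlat and Pdk3, in siHk2 and in siControl alike, and the library ranges of these neighbours did not overlap within a group. Mpc1, at 36.6 ± 2.59 TPM in siHk2 and 29.6 ± 4.52 TPM in siControl, and Pdhx, at 35.4 ± 2.62 TPM in siHk2 and 29.7 ± 2.75 TPM in siControl, overlapped in their library ranges in siHk2 and in siControl, and in siControl Pdk2 overlapped both. Within each siHk2 library Mpc1 was the higher of the pair, whereas in siControl the order differed between libraries. Pdk1 and Mpc2 were the lowest. By mean level Dld, Pdhb and Pdha1 lay at percentiles 95.2, 92.9 and 90.9 of the tested genes, whereas Mpc2 lay at percentile 31.5. Pdhx and Pdk1 lie on chromosome 2 and Pdha1 and Pdk3 on chromosome X, and the others each on a chromosome of their own.

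In some libraries most of the genes also lay on the same side of their group mean. In siControl library 5 all 10 lay above their group mean on the log2(TPM + 1) scale, with a median deviation of 0.09, and in siHk2 library 2, 9 of 10 did, with a median of 0.08. In siHk2 library 1, 9 of 10 lay below, with a median of -0.07, and in siControl library 6, 8 of 10, with a median of -0.05. In siHk2 library 3, 6 lay above and 4 below, and in siControl library 4, 3 lay above and 7 below. The share of all tested genes above their group mean was not counted. The median deviation over all tested genes was within 0.01 of 0 in each library. For 6 of the 10 genes (Mpc2, Pdha1, Pdhb, Dld, Pdhx and Pdk2) library 2 was the highest of siHk2 and library 5 the highest of siControl, a pattern seen in 21.6% of all tested genes. The second principal component over all tested genes (25.7% of the variance) placed these libraries alike, at -13.7 for siHk2 library 2 and -17.8 for siControl library 5, against 11.97 for siHk2 library 1 and 17.6 for siControl library 6. The deviations of Pdk2 were the widest of the 10 genes in siHk2 and in siControl, with its values in libraries 2 and 5 above all others. This pattern was noticed after the values were seen, and its part in the group differences was not tested.

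**Figure D4:**
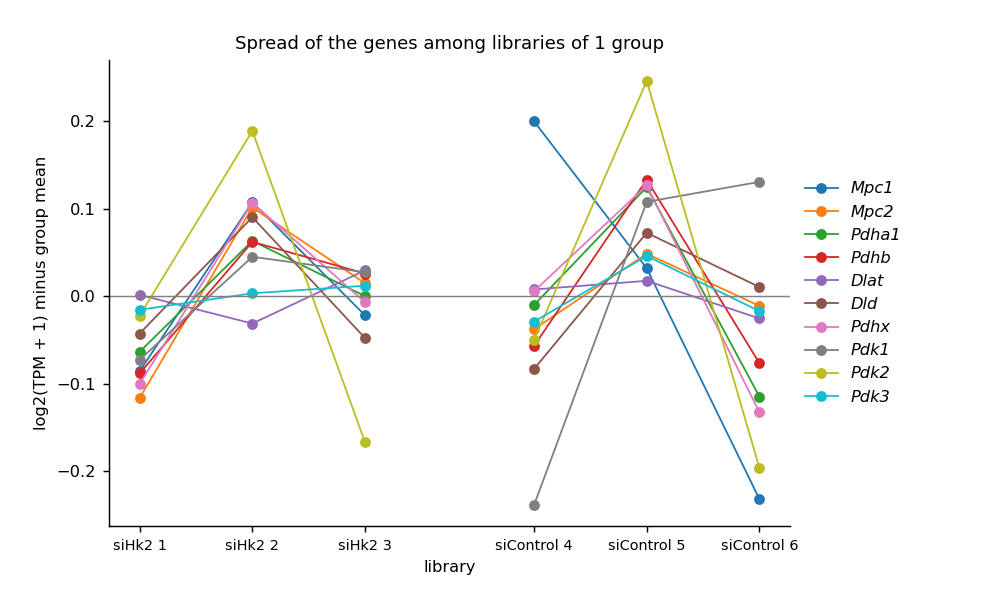
Deviation of each gene from the mean of its own group on the log2(TPM + 1) scale (vertical axis) in the 6 libraries (horizontal axis); lines join the values of 1 gene within a group. Most genes peak in siHk2 library 2 and siControl library 5, Pdk2 most strongly, while Mpc1 and Pdk1 differ from the others in siControl library 4.

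Genes around the complex were set beside it from 5 lists, and 6 of 51 tested genes passed, 5 higher and 1 lower, with a median log2 fold change of 0.05. With 13.6% of all tested genes passing, this count lies near the background. The count fell to 2 without siHk2 library 2, to 2 without siHk2 library 3, to 3 without siHk2 library 1 and to 3 without siControl library 4, and it was 12 without siControl library 6. None of the 8 genes of the phosphatases, Pdk4 and thiamine supply passed in limma. An unadjusted p under 0.05 was found for 1 of them, against 30.7% of all tested genes. Pdp1, a phosphatase that reactivates the complex, averaged 35.4 ± 3.16 TPM in siHk2 and 29.5 ± 5.93 TPM in siControl (SD, n = 3 each, adjusted p = 0.243 in limma), with a log2 fold change of 0.27 that was 0.12 without siControl library 5 and 0.405 without siControl library 6. The thiamine transporter gene Slc19a2 averaged 88.6 ± 3.75 TPM in siHk2 and 97.6 ± 4.61 TPM in siControl (adjusted p = 0.134 in limma), without overlap.

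Dlat carries its acetyl group on attached lipoate, which mitochondria make from fatty acid synthesis of their own. Of 9 tested genes of that route (Hsd17b8 was not analysed here), 0 passed in limma. An unadjusted p under 0.05 was found for 3 of the 9, near the share of 30.7% among all tested genes. These 3 lay above 0, while the whole list had 5 values above 0 and 4 below. Cbr4, a reductase of mitochondrial fatty acid synthesis, averaged 8.45 ± 0.821 TPM in siHk2 and 6.45 ± 0.823 TPM in siControl (adjusted p = 0.0956 in limma). Oxsm, the condensing enzyme, averaged 17.4 ± 0.724 TPM in siHk2 and 14.98 ± 1.07 TPM in siControl (adjusted p = 0.117), and Mcat, the malonyl transferase, 31.8 ± 4.27 TPM in siHk2 and 26.4 ± 1.65 TPM in siControl (adjusted p = 0.134; SD, n = 3 each). The log2 fold change of Mcat, 0.25, was 0.15 without siHk2 library 2. Lias, which makes the lipoyl group, and Lipt1, which passes it on, were near 0 in log2 fold change, at -0.05 and -0.003. Lipt2, also of this route, had a log2 fold change of -0.20, with overlap, and did not pass (limma adjusted p = 0.446).

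None of the 11 tested genes of the other lipoate-dependent complexes passed in limma. An unadjusted p under 0.05 was found for 2 of them, against 30.7% of all tested genes. Gldc, of the glycine cleavage system, stayed under a mean of 1 TPM. Bckdhb, of the branched-chain complex that shares Dld, averaged 147 ± 12.97 TPM in siHk2 and 119 ± 10.5 TPM in siControl (adjusted p = 0.0556 in limma). Gcsh, the lipoyl carrier of glycine cleavage, averaged 202 ± 4.33 TPM in siHk2 and 221 ± 8.86 TPM in siControl (adjusted p = 0.0956), and Bckdk, the kinase of the branched-chain complex, 69.4 ± 2.36 TPM in siHk2 and 75.4 ± 3.41 TPM in siControl (adjusted p = 0.178; SD, n = 3 each). The values of this list therefore lie on both sides of 0.

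Of 13 tested genes of pyruvate sources and its other fates, 3 rose and none fell, where 6.15% of all tested genes passed as higher and 7.42% as lower, although the list's median log2 fold change was -0.08 and 8 of 13 values lay below 0. Gpt, a transaminase between pyruvate and alanine, read 48.4, 49.7 and 49.8 TPM in siHk2 and 37.6, 39.8 and 37.2 TPM in siControl. The groups were far apart (log2 fold change 0.36, SE 0.05, adjusted p = 0.00644 in limma), and Gpt passed in all 14 alternative settings. The other transaminase gene of the list, Gpt2, was more abundant than Gpt in every library and went the other way. It read 118, 121 and 120 TPM in siHk2 and 136, 142 and 122 TPM in siControl. Every siHk2 library was lower, and Gpt2 did not pass (log2 fold change -0.16, limma adjusted p = 0.135). The rise of Gpt therefore does not stand for both transaminase genes. Pcx, the carboxylase that turns pyruvate into oxaloacetate, averaged 252 ± 20.9 TPM in siHk2 and 200 ± 13.7 TPM in siControl (SD, n = 3 each, adjusted p = 0.0285). Slc25a1, which exports citrate from mitochondria, averaged 198 ± 13.6 TPM in siHk2 and 157 ± 15.5 TPM in siControl (adjusted p = 0.0360). The call of Pcx was lost without siControl library 4 or 5 (adjusted p = 0.0604 and 0.0519) and without siHk2 library 1 or 3 (adjusted p = 0.0780 and 0.0995), with a range of 0.0113 to 0.0995 over the 14 settings. That of Slc25a1 was lost without siHk2 library 1, 2 or 3 (adjusted p = 0.0501, 0.117 and 0.122) and without siControl library 4 (adjusted p = 0.0985), with a range of 0.00574 to 0.122. Both calls were also lost without the filter on low values (limma adjusted p = 0.0628 for Pcx and 0.0792 for Slc25a1). The same held with no mean-variance trend (limma adjusted p = 0.0684 for Pcx and 0.0797 for Slc25a1). Pyruvate kinase Pkm and the lactate dehydrogenase gene Ldha did not pass (log2 fold changes -0.09 and -0.08). The other lactate dehydrogenase gene, Ldhb, had a log2 fold change of 0.31 and did not pass either (limma adjusted p = 0.102). It averaged 110 ± 8.68 TPM in siHk2 and 89.4 ± 13.6 TPM in siControl (SD, n = 3 each), with overlap. Pklr was not analysed here.

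**Figure D5:**
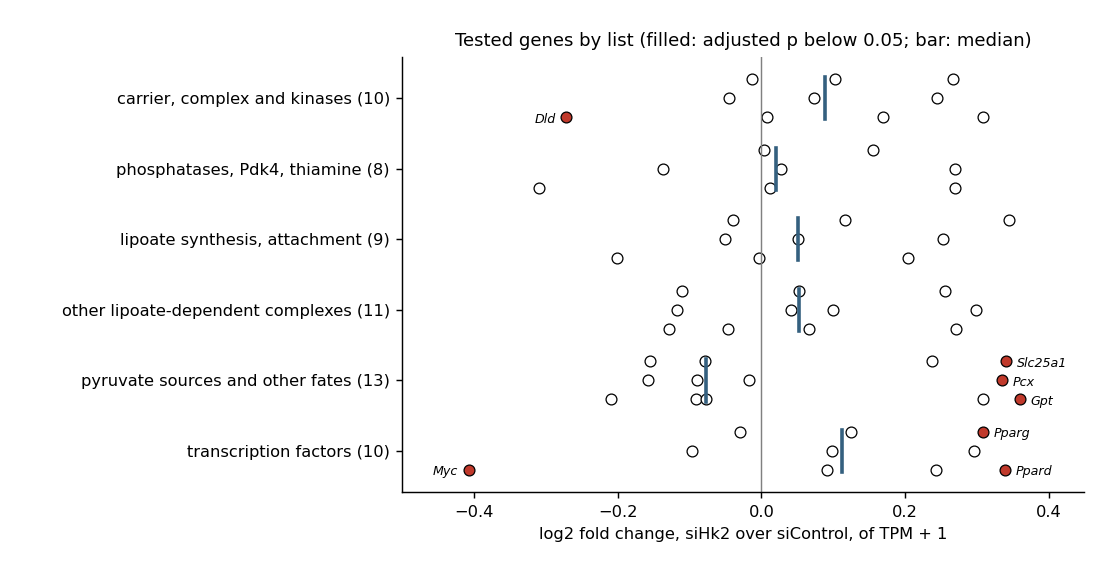
Log2 fold change of TPM + 1, siHk2 over siControl (horizontal axis), of every tested gene in the group of 10 and in the 5 related lists, with the number tested in brackets; filled points passed an adjusted p of 0.05 and the bars are medians. Of the filled points, Dld and Myc lie below 0 and Gpt, Pcx, Slc25a1, Pparg and Ppard above 0, with open points of similar size on both sides.

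The profile of Dld over the 6 libraries was compared with those of 9902 other genes with a symbol and a mean of at least 5 TPM, by the root mean square difference of log2(TPM + 1) after centring each gene. The nearest were Naglu, a lysosomal glucosaminidase gene (difference 0.0147), and Dtl, a gene of DNA replication control (difference 0.0203), where the profile of Dld itself has a root mean square of 0.150. Naglu read 49.7, 53.9 and 49.0 TPM in siHk2 and 57.0, 65.1 and 60.8 TPM in siControl (adjusted p = 0.0427 in limma). This call was lost in 8 of 14 alternative settings, among them the removal of any 1 library, with adjusted p = 0.0593 to 0.147 there. Dtl read 12.4, 13.5 and 12.5 TPM in siHk2 and 14.7, 16.1 and 16.0 TPM in siControl (adjusted p = 0.0535). Both genes were picked for their likeness to Dld, so their lower values in siHk2 follow from that choice and are no separate result.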

How the data were processed

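Poly(A) RNA of 6 MEF libraries was sequenced on a BGI platform, per the labels' protocols. The authors deposited 1 table of TPM values with 2 decimals, in which every library sums to the same total. Its build was GRCm39, per the submitters' processing notes. The sources used here give no aligner, counter, annotation release or strand setting, so reads of overlapping genes may not have been separated. Columns of siHk2 were matched by title. The numbers on the siControl columns fit no title, so these were used as unnumbered replicates of their group.

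The test was limma 3.58.1 (R 4.3.3) on log2(TPM + 1), for genes averaging 1 TPM or more across all 6 libraries (group as the factor, empirical Bayes with a mean-variance trend, two-sided, Benjamini-Hochberg adjustment over all 13341 tested genes, threshold 0.05). The pseudocount understates changes of low genes. Ratios and shares were computed within each library and carry no test. The 10 genes and all lists were chosen with earlier results of these data known. Named were the 10 genes, Hk2, up to 3 genes of smallest p in each list and the 2 genes of most similar profile to a gene that passed. Genes named beyond this, and the motifs, were chosen after values were seen. Alternatives were pseudocounts of 0.1 and 0.5, no filter, a mean of at least 5 TPM, no trend, library weights, 2 other scalings and leaving out each library. Transcripts and UTRs came from GENCODE M21 (GRCm38) and promoter windows from RefSeq (GRCm38.p6), read with pandas 2.3.3 in Python 3.11.15. Figures were drawn with matplotlib 3.10.9.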

Additional observations from a re-analysis of the deposited data

How the results depend on the processing

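Of the 10 genes, 1 passed; the count was 0 without the filter and 0 with no mean-variance trend, 4 with library weights (Dld, Mpc2, Pdhb and Pdhx), and 0 to 1 when 1 library was left out, where the gene that passed without siControl library 5 was Pdhb and not Dld. Of all genes, 1810 passed, against 1186 with no filter, 1057 with no trend, 4040 with library weights and 504 to 2126 with 1 library left out. Of the genes in the related lists, 6 passed, against 3 with no filter, 3 with no trend, 17 with library weights and 2 to 12 with 1 library left out. The fall of Hk2 passed in all 14 alternatives. Pdk1 (-0.11 to 0.073) and Pdk2 (-0.11 to 0.11) changed sign on the log2 scale when single libraries were left out, and Pdk1 was 0.16 with library weights; the other 8 of the 10 genes kept theirs in all 14. The cause of these shifts was not tested, except that fewer libraries or more genes tested follow from the settings themselves. No paired analysis was possible because numbers 4 to 6 on the siControl columns occur in no title and share nothing with numbers 1 to 3 of siHk2. The depth of the libraries is unknown, so no counting error could be given.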

Other observations

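Of 10 tested transcription factor genes and coactivators known to act on genes of this route, 2 rose and 1 fell in limma, where 6.15% of all tested genes passed as higher and 7.42% as lower, with a median log2 fold change of 0.11. Pparg, a nuclear receptor that drives adipocyte formation, read 154, 154 and 145 TPM in siHk2 and 128, 116 and 121 TPM in siControl (log2 fold change 0.31, adjusted p = 0.0115), and its relative Ppard averaged 34.8 ± 0.662 TPM in siHk2 and 27.3 ± 1.502 TPM in siControl (SD, n = 3 each, adjusted p = 0.0130). Both were higher in 3 of 3 siHk2 libraries. The call of Pparg was lost without siHk2 library 2 (adjusted p = 0.0512, range 0.00715 to 0.0512 over 14 alternatives), and that of Ppard without siHk2 library 2 or 3 (adjusted p = 0.0512 and 0.0663, range 0.00281 to 0.0663). Myc averaged 148 ± 8.92 TPM in siHk2 and 197 ± 26.7 TPM in siControl (log2 fold change -0.41, adjusted p = 0.0369), a call lost in 7 of 14 alternatives, among them the removal of any siHk2 library (adjusted p = 0.112, 0.0818 and 0.107) or of siControl library 4 or 5 (adjusted p = 0.125 and 0.0674), with a range of 0.00391 to 0.125. Hif1a, the hypoxia-inducible factor gene, did not pass and had a log2 fold change of 0.30 (adjusted p = 0.0728). Ppara was not analysed here, and Epas1 stayed under a mean of 1 TPM.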
